A study of Mus musculus with 2 samples.

Results

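10 genes of the cytotoxic granule programme were followed across the 2 single-cell libraries of this study: the granzymes Gzma, Gzmb, Gzmc and Gzmk, the pore-forming protein Prf1, the granule genes Nkg7 and Ctsw, and the protease inhibitors Serpinb9, Serpinb6b and Ctla2a. They were taken by symbol and are 10 of the 27998 genes in each count matrix. The 2 questions were which of them accompany Gzmb, and whether Prf1 does. Sorted cells from Foxp3Cre-YFP mice, of the C57BL/6 strain and 5 to 8 weeks old, were profiled with droplet-based 3' sequencing, in which each captured transcript carries a unique molecular identifier (UMI) and is counted once. The first library came from B16 melanoma at day 14, and the second from lymph node of unchallenged mice. Both carry the same genotype, in which the locus of Foxp3, the lineage factor of regulatory T (Treg) cells, drives Cre recombinase and a yellow fluorescent protein. How the cells were gated, and how many mice were pooled, the available labels do not state. Because each tissue has 1 library, differences have no replicate check and no test was made: every interval is a 95% interval of counting error only.

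Cytotoxic lymphocytes store granzymes, a family of serine proteases, in granules together with perforin. On contact with a target cell the granule fuses with the surface membrane, perforin forms pores in the target membrane, and granzymes pass through and cleave proteins of the target. The storing cell also makes serpins, inhibitors that trap a granzyme leaking into its own cytosol. In mice, Treg cells in tumours are known to make granzyme B, and killing through granules is one of the ways described for their suppression of other cells.

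Cells were barcodes that reached a UMI threshold of 3834 in tumour or 1811 in lymph node and passed filters on genes, mitochondrial UMIs and transcripts of melanoma, macrophages and B cells. This left 1457 tumour cells with 16669263 UMIs (median 8766 per cell) and 2202 lymph node cells with 10681101 UMIs (median 4100 per cell), and 1 barcode occurred among the cells of both. The 7 Treg markers together reached 3491 counts per 1000000 UMIs (CPM) in tumour and 2210 CPM in lymph node, and the T cell markers 3927 CPM and 3425 CPM in the same order of tissues. The Treg markers did not move together. Ctla4 (6.46-fold), Tnfrsf18 (3.63-fold) and Ikzf2 (1.43-fold) had ratios of tumour over lymph node above 1. Il2ra (0.954-fold), Foxp3 (0.783-fold), Nrp1 (0.595-fold) and Izumo1r (0.479-fold) had ratios below 1. Foxp3 itself was found in 244 tumour cells and 211 lymph node cells, at 17.2 CPM and 21.9 CPM. Of the 2 CD8 T cell markers, Cd8a was at 0 in both libraries and the pair summed to 19.5 CPM in tumour and 17.6 CPM in lymph node. The 10 markers of natural killer and innate lymphoid cells, the other classic sources of granule genes, summed to 2.34 CPM in tumour and 1.31 CPM in lymph node, with Ncr1, Klre1, Klra4 and Klra8 at 0 in both. Macrophage markers summed to 6.96 CPM in tumour and 1.59 CPM in lymph node. Cells with at least 3 UMIs of mitotic genes made up 55.0% of tumour cells and 4.13% of lymph node cells. These UMIs were counted before thinning, so the 2 shares are at unequal depth and the deeper tumour cells pass the cut more easily. The difference in mitotic cells moves with every ratio between the tissues.

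The promoter sequences of 4 members are shown because Gzmb and Ctla2a varied together from cell to cell, Gzmc shared cells with Gzmb, and Prf1 is the gene asked about. Each is the 250 bases before the annotated start, 5' to 3' on the gene's own strand, from RefSeq on GRCm38.p6, and 9 of the 10 members had an entry (Ctsw did not). Capitals mark matches, on either strand, to the letters TGTGGT (RUNX), TGANTCA (AP-1), TGACG (cAMP response half-site), TCACAC (T-box half-site) and TTCNNNGAA (STAT). The Gzmb stretch lies at chr14:56262335-56262584 on the minus strand, Ctla2a at chr13:60936626-60936875 (minus), Gzmc at chr14:56234658-56234907 (minus) and Prf1 at chr10:61297586-61297835 (plus).
Gzmb: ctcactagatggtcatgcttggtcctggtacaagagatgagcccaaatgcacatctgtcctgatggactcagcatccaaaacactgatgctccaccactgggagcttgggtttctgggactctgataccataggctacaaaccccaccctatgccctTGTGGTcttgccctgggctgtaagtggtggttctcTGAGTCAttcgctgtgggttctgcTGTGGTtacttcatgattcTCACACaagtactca
Ctla2a: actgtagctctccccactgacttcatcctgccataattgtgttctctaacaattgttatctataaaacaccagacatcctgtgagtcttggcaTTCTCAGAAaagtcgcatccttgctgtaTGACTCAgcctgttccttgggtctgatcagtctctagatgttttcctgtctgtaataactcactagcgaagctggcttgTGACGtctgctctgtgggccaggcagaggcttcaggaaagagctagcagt
Gzmc: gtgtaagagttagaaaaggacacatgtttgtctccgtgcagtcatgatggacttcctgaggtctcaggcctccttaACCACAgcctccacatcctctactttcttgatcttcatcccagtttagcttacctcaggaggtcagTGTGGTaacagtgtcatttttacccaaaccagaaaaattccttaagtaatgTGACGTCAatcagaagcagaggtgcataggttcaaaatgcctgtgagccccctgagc
Prf1: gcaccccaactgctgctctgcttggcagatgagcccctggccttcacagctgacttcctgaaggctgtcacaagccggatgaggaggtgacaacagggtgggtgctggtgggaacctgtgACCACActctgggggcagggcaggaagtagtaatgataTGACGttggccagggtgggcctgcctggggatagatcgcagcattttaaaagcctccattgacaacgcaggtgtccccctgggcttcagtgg
The AP-1 letters occurred in Gzmb and Ctla2a among the 9 promoters, and in 6.87% of 27025 promoters of the same length. The RUNX letters occurred in Gzma, Gzmb, Gzmc, Prf1 and Nkg7, against 14.2% of all promoters. The cAMP half-site occurred in Gzmc, Prf1 and Ctla2a (17.9% of all promoters), the T-box half-site in Gzmb, Gzmk and Nkg7 (12.2%), and the STAT letters in Nkg7 and Ctla2a (7.18%). A match is a description of the letters only.

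Gzmb, the granzyme that cleaves after aspartate and can activate caspases, had the largest ratio between the tissues of the 10 members, though the wide interval of Gzmk spans it. Its gene spans chr14:56258838-56262260 on the minus strand (GRCm38). Gzmb had 14693 UMIs in tumour cells, or 881 CPM, against 125 UMIs in lymph node cells, or 11.7 CPM, a 75.3-fold ratio (interval 63.2 to 90.6). The lymph node sum rested on few cells, since its 5 highest cells held 57.6% of the UMIs, against 4.91% in tumour. Without the single highest cell of each library the ratio was 99.1, without the 5 highest 169, and without cells holding mitotic transcripts 293, while among cells with a Foxp3 UMI it was 57.1. After every cell was thinned to 1811 UMIs, 42.0% of the tumour cells held Gzmb (39.5% to 44.6%), against 0.590% of those from lymph node (0.315% to 1.01%). The unthinned shares were 65.4% in tumour and 1.32% in lymph node. The summed ratio thus came with more cells holding the transcript, and the sum alone cannot tell cell number and RNA per cell apart.

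Free RNA bears on these shares, because barcodes of 1 to 100 UMIs in the tumour library held Gzmb at 778 CPM. Among 15 barcodes left out of the tumour library for melanoma transcripts, 0 had Gzmb at 1811 UMIs, which allows up to 21.8% (Clopper-Pearson), and 13 had it at their full median depth of 70488 UMIs. Melanoma transcripts (Pmel, Dct, Mlana and Tyrp1) stood at 32.3 CPM in the tumour cells and at 1181 CPM in the free RNA, so that free RNA would make up about 2.74% of a tumour cell's UMIs if all of them came from it. That would give 21.3 CPM of Gzmb in tumour cells, against the 881 CPM measured, and 1.62% to 3.73% of the level of each of the 10 members. The cell filter had already left out barcodes with high counts of Pmel, Dct and Mlana. These values were therefore capped by the filter and could be too low, and no measure of free RNA independent of it was made.

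The other granzymes were scarce in both libraries. Gzma, which cleaves after basic residues, had 104 UMIs in 62 tumour cells (6.24 CPM) against 6 UMIs in 5 lymph node cells (0.562 CPM), an 11.1-fold ratio (4.93 to 31.0). Among cells with a Foxp3 UMI, Gzma had 17 UMIs in tumour and 0 in lymph node, which is at least 2.32-fold higher when 3 counts stand for the 0. Gzmc, a mouse granzyme of the same chromosome 14 cluster as Gzmb, had 248 UMIs in 97 tumour cells (14.9 CPM) against 32 UMIs in 25 lymph node cells (2.996 CPM), a 4.97-fold ratio (3.43 to 7.42), or 2.80-fold without cells holding mitotic transcripts. A single tumour cell held 43 of the Gzmc UMIs. Gzmk, a neighbour of Gzma on chromosome 13, had 25 UMIs in tumour (1.4998 CPM) and 1 UMI in lymph node (0.0936 CPM), a ratio of 16.02 with an interval of 2.62 to 658, and it was at least 3.53-fold higher once cells were thinned to 1811 UMIs, against the floor of 3 counts over the lymph node cells. At 1811 UMIs per cell the tumour and lymph node shares were 1.17% and 0.0908% for Gzma, and 1.78% and 0.454% for Gzmc. Gzmk was found at that depth in 0.480% of tumour cells and 0 of the 2202 lymph node cells, which allows a share with a UMI of up to 0.136% (3 of 2202 cells). Of the 6 remaining granzyme genes listed, Gzmm had 2 UMIs in tumour and 9 in lymph node, Gzmf 2 and 5 in the same order, and Gzmd, Gzme, Gzmg and Gzmn 0 in both.

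Prf1, the perforin that opens the target membrane, was rare in both tissues. It had 36 UMIs in 29 tumour cells, or 2.16 CPM, against 3 UMIs in 3 lymph node cells, or 0.281 CPM, a 7.69-fold ratio (2.43 to 39.0), or 2.45-fold among cells with a Foxp3 UMI. No tumour cell had more than 5 Prf1 UMIs, while the highest Gzmb cell had 161. At 1811 UMIs per cell 0.412% of the tumour cells held Prf1 (0.151% to 0.894%), against 0.0454% of those from lymph node, and the unthinned shares were 1.99% in tumour and 0.136% in lymph node. Free RNA would give 0.0350 CPM of Prf1 in tumour cells by the estimate above, which was capped by the cell filter and could be too low.

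Nkg7, a granule membrane protein needed for granule release, was found in more cells than any other member in both tissues except Ctsw in lymph node. It had 16448 UMIs in tumour cells (987 CPM) against 1048 UMIs in lymph node cells (98.1 CPM), a 10.1-fold ratio (9.45 to 10.7). Setting aside the deepest 5% of cells gave a ratio of 15.4, and keeping cells with Foxp3 transcripts gave 5.83. At equal depth 56.6% of the tumour cells held Nkg7, against 5.99% of those from lymph node, and it was found in 2 of the 15 melanoma barcodes. Ctsw, a cathepsin-like protein of cytotoxic lymphocytes, had 1879 UMIs in tumour (113 CPM) against 817 UMIs in lymph node (76.5 CPM), a 1.47-fold ratio (1.36 to 1.60). At 1811 UMIs 18.5% of the tumour cells held it, against 11.5% of those from lymph node.

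All 3 inhibitors were higher in tumour. Ctla2a, which resembles the propeptide of a cathepsin and inhibits cathepsin L, had 4669 UMIs in tumour cells (280 CPM) against 360 UMIs in lymph node cells (33.7 CPM), an 8.31-fold ratio (7.46 to 9.28), which was 16.3 without cells holding mitotic transcripts. At equal depth 35.5% of the tumour cells held it, against 3.95% of those from lymph node. Serpinb6b, a mouse serpin that inhibits granzyme A, had 702 UMIs in tumour (42.1 CPM) against 175 UMIs in lymph node (16.4 CPM), a 2.57-fold ratio (2.18 to 3.05). Serpinb9, the intracellular inhibitor of granzyme B, had 391 UMIs in tumour (23.5 CPM) against 122 UMIs in lymph node (11.4 CPM), a 2.05-fold ratio (1.67 to 2.54). The Serpinb9 ratio lay at the 2-fold line and was 1.51 once all cells were thinned to 1811 UMIs. At that depth 6.86% of the tumour cells held Serpinb6b, against 2.86% in lymph node, and 3.64% held Serpinb9, against 2.36%. Related genes can share reads; in the last 500 bases of the longest transcript, Gzmb and Gzmc, Ctla2a and Ctla2b, Serpinb6b and Serpinb6a, and Serpinb9 and Serpinb9b had no 50-base stretch in common.

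**Figure D1:**
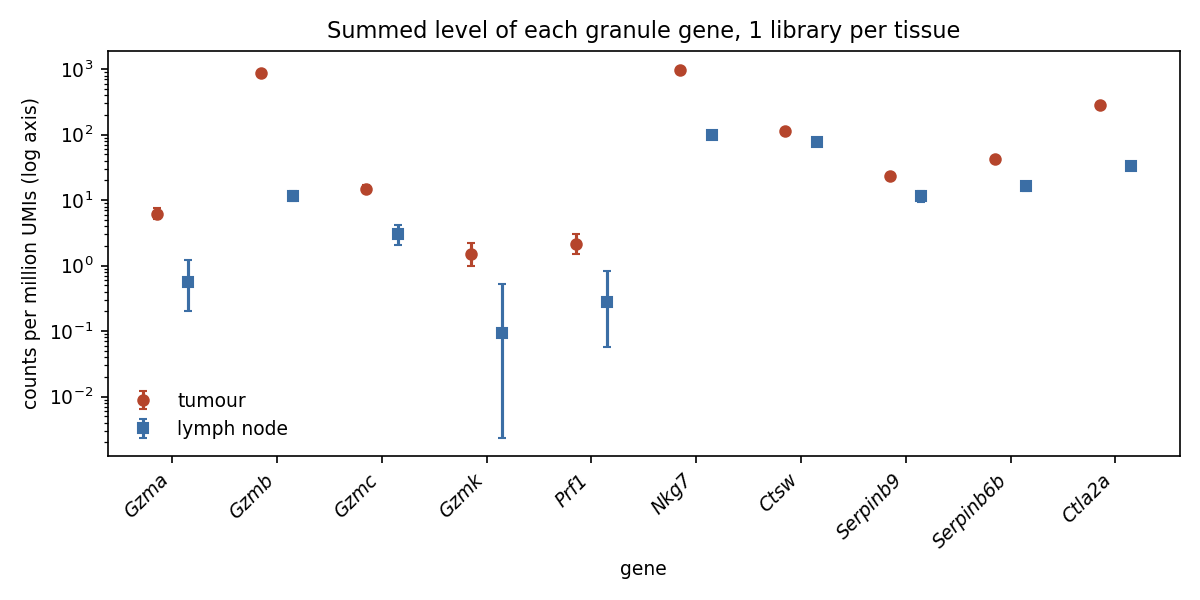
Summed level of each granule gene in CPM (log axis), tumour as circles and lymph node as squares, with exact Poisson 95% intervals of 1 library each. Gzmb shows the widest gap (881 and 11.7 CPM), Ctsw the narrowest (113 and 76.5 CPM).

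**Figure D2:**
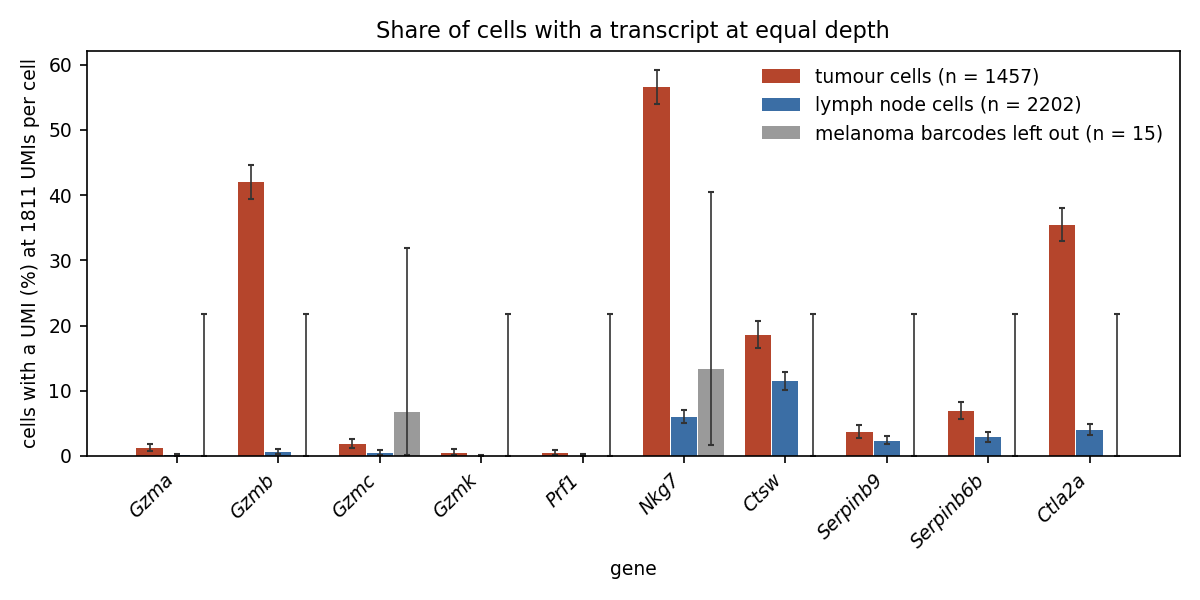
Share of cells with a UMI of each gene after thinning to 1811 UMIs, in tumour cells, lymph node cells and the 15 melanoma barcodes left out, with Clopper-Pearson 95% intervals. Gzmb (42.0%), Nkg7 (56.6%) and Ctla2a (35.5%) stand above the rest in tumour, and the intervals of the 15 barcodes are wide.

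In all, 9 of the 10 members were at least 2-fold higher in tumour, 0 were at least 2-fold lower, and Ctsw lay between, with a median ratio of 7.99-fold. Over the 9976 genes with at least 50 UMIs, 13.2% were at least 2-fold higher and 7.7% at least 2-fold lower, with a median ratio of 1.10-fold. Of the 10 members, 8 reached those 50 UMIs, Prf1 and Gzmk being the exceptions. Scaling by TMM in place of total UMIs shifted every log2 ratio by -0.15, which put Serpinb9 under 2-fold and left no member lower in tumour.

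The wider granule pathway was followed through 5 further gene lists with 49 genes of at least 20 UMIs. Of these, 23 were at least 2-fold higher in tumour, 6 at least 2-fold lower and 20 between, with a median log2 ratio of 0.94. Over all genes with at least 50 UMIs 13.2% were higher, and no share over all genes was taken at 20 UMIs. Among genes of the granule matrix and its processing, 6 of 10 were higher, led by serglycin (Srgn, 3.34-fold), which packs granzymes, the mannose 6-phosphate receptor M6pr (3.04-fold) and cathepsin D (Ctsd, 2.94-fold). The lowest of this list were Igf2r, the larger mannose 6-phosphate receptor, at 0.263-fold, Ctsh at 1.20-fold and Ctsl at 1.22-fold. Among membrane and release genes, 3 of 11 were higher: the fusion protein Stx11 at 2.96-fold, Lamp2 at 2.64-fold and Lyst, a lysosome trafficking regulator, at 2.20-fold. In the same list Lamp1 was at 0.431-fold, and the release factors Snap23 and Unc13d were at 1.002-fold and 1.01-fold. Of 6 genes in a list of death ligands and related cytokines, 3 were higher, namely Ifng (5.45-fold), Tnfsf10 (2.80-fold) and Fasl (2.33-fold). Lta was at 0.219-fold, Ltb at 0.959-fold and Tnf at 1.03-fold.

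Of the further serpins and protease inhibitors, 5 of 8 were higher, led by Serpina3f (28.8-fold), Serpina3g (11.0-fold) and Ctla2b (8.12-fold), the close relative of Ctla2a. At the other end Serpinc1 was at 0.192-fold, Cstb at 1.52-fold and Cst3 at 1.86-fold. Among 14 transcription factors tied to granzyme genes, 6 were higher and 2 lower. Bhlhe40 (18.5-fold), Tbx21, which encodes T-bet (16.4-fold), and Id2 (11.5-fold) led, and Bach2 (0.0234-fold), Tcf7 (0.0495-fold) and Irf4 (0.561-fold) were lowest. Without cells holding mitotic transcripts, the 5 lists held 28 genes past 2-fold in tumour. The share over all genes was not computed for those cells, so the rise cannot be read as one of these lists.

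Within the tumour, cells were compared at equal depth by thinning each to 3834 UMIs. No Gzmb UMI was then left in 708 of 1457 cells, and the cells with one fell into 272 low (1 to 2 UMIs), 229 middle (3 to 7) and 248 high (8 to 96). The 248 Gzmb-high cells, 17.0% of all, held 76.3% of the Gzmb UMIs. The classes are ranges of a continuous count, with 35 cells at 7 UMIs and 30 at 8. From none through low and middle to high, their full-depth median was 9152.5, 9636.5, 9220 and 7445 UMIs, and the share of cells with mitotic transcripts 55.2%, 55.9%, 61.6% and 47.2%. The median share of ribosomal protein UMIs was 25.9%, 24.9%, 23.6% and 21.7% in the same order.

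Ctla2a accompanied Gzmb most steadily: it was the only member at least 2-fold higher in Gzmb-high than in Gzmb-none cells under every setting tried. It averaged 0.869, 1.49, 1.82 and 2.69 UMIs per cell from none through low and middle to high, and was found in 35.9%, 55.1%, 54.1% and 67.7% of cells. Gzmb-high cells held 668 Ctla2a UMIs and Gzmb-none cells 615, a 3.10-fold ratio per cell (2.77 to 3.47), and over all settings tried the ratio lay between 2.29 and 3.17. Gzmc was found in 1.27%, 4.04%, 5.24% and 5.65% of cells from none through low and middle to high, while its mean UMIs per cell were 0.0141, 0.0919, 0.105 and 0.0645 in the same order. With Gzmb, 37 of 749 cells held Gzmc (4.94%, interval 3.50% to 6.75%), and without Gzmb 9 of 708 (1.27%, 0.583% to 2.40%). Over 5 random thinnings these shares ranged from 4.23% to 5.42% with Gzmb and from 1.27% to 1.63% without. The Gzmc ratio of Gzmb-high over Gzmb-none cells was 4.57 from 16 and 10 UMIs (1.95 to 11.3), with a range of 1.70 to 16.9 over the settings. In 2 of the 4 other random thinnings it was under 2-fold, at 1.72 (0.767 to 3.69) and 1.77 (0.757 to 3.96).

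Whether Prf1 accompanied Gzmb could not be resolved at this depth. It had 4 UMIs in Gzmb-high cells and 6 in Gzmb-none cells, a 1.90-fold ratio with an interval of 0.395 to 8.03, and the ratio changed side with the random thinning (0.793 to 2.87). Its share was 0.706%, 0.735%, 1.31% and 1.61% of cells from none through low and middle to high. Counted at full depth, 21 of the 29 tumour cells with Prf1 also held Gzmb (72.4%, 52.8% to 87.3%), against 932 of the 1428 cells without Prf1 (65.3%, 62.7% to 67.7%), the median depths being 10389 and 8756 UMIs. Most Gzmb cells were without a Prf1 UMI: at full depth it was found in 21 of 953 cells with Gzmb (2.20%, 1.37% to 3.35%) and 8 of 504 without (1.59%, 0.688% to 3.10%). At full depth Nkg7 was found in 27 of the 29 Prf1 cells (93.1%, 77.2% to 99.2%). In the shallower cells without Prf1 it was found in 1147 of 1428 (80.3%, 78.2% to 82.4%), and the 2 intervals overlap.

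In the main thinning no other member with a ratio differed by 2-fold between Gzmb-high and Gzmb-none cells, though 2 of them crossed that line under other settings. Nkg7 averaged 4, 3.53, 3.98 and 3.96 UMIs per cell from none to high, and its ratio of high over none was 0.990 (0.920 to 1.06), or 1.16 (1.11 to 1.21) at full depth. By share of cells, over 5 random thinnings Nkg7 was found in 70.9% to 74.3% of cells with Gzmb and 66.2% to 68.1% of cells without. Serpinb9 had a ratio of 0.968 (0.552 to 1.63), Serpinb6b 1.30 (0.910 to 1.83), Gzma 0.816 (0.269 to 2.09) and Ctsw 0.772 (0.621 to 0.954). Serpinb6b reached 2.17 (1.58 to 2.98) in 1 of the 4 other thinnings, 1.75 (1.42 to 2.16) at full depth and 2.32 (1.19 to 4.50) among cells with a Foxp3 UMI. Gzma reached 2.13 (0.884 to 4.96) in 1 thinning. In the other direction, Gzma was at 0.448 (0.00975 to 3.70) among cells with a Foxp3 UMI. Without cells with a Ccl3 or Ccl4 UMI it was at 0.476 (0.0897 to 1.63). Serpinb9 was at 1.52 (1.13 to 2.05) at full depth. Serpinb9 or Serpinb6b was found in 18.8%, 19.9%, 19.7% and 20.6% of cells from none through low and middle to high. Thus 51 of the 248 Gzmb-high cells held a UMI of Serpinb9 or Serpinb6b at this depth (interval 15.7% to 26.1%). Other serpins were not counted here. Of the 9 other members, 2 were at least 2-fold higher in Gzmb-high than in Gzmb-none cells, 0 were lower and 6 lay between. Gzmk (2 and 1 UMIs) had no ratio. Over the 5911 genes with at least 50 UMIs in the 2 classes together, 1.18% were higher and 3.13% lower. Only 5 of the 9 members reached those 50 UMIs. Of the 2 higher members, Ctla2a reached them and Gzmc (16 and 10 UMIs) did not. Without the cells holding mitotic transcripts, Ctla2a was the 1 member left above the 2-fold line. Gzmc was then at 1.70 from 3 UMIs in Gzmb-high and 5 in Gzmb-none cells. Its interval of 0.264 to 8.73 is too wide to place it on either side of that line.

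**Figure D3:**
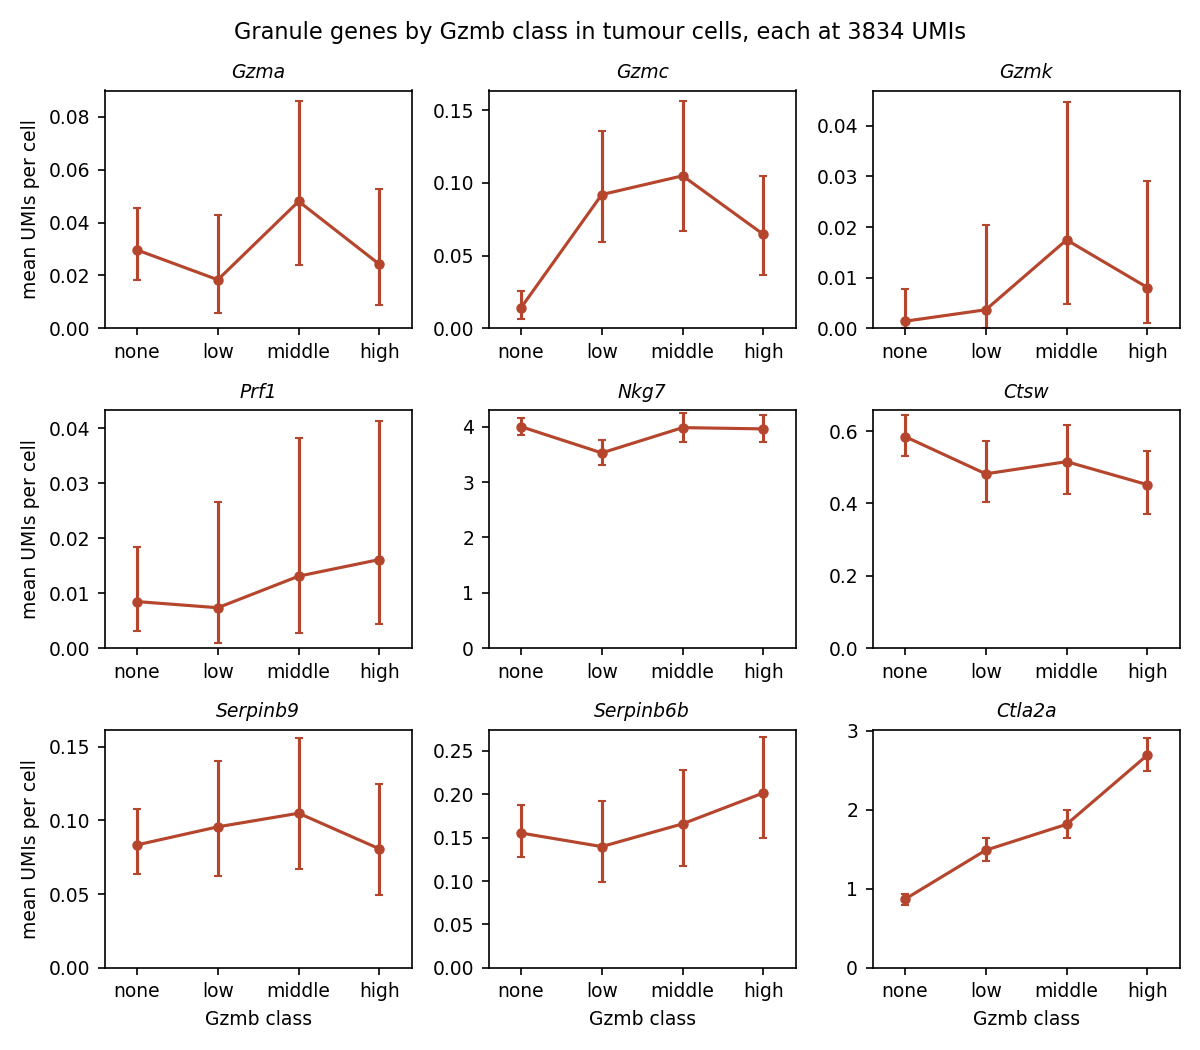
Mean UMIs per tumour cell at 3834 UMIs for the 9 other granule genes, by Gzmb class (none, low, middle, high; 708, 272, 229 and 248 cells), with Poisson 95% intervals. Ctla2a climbs over the 4 classes (0.869 to 2.69), Nkg7 stays near 4 UMIs, and the intervals of Prf1 overlap throughout.

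Across the 1457 tumour cells at 3834 UMIs, Ctla2a had the correlation with Gzmb of rank 3 among 3294 genes with at least 200 UMIs (Pearson r = 0.30 of log(1 + UMIs)). These cells share 1 library, and the middle of all genes was at 0.00385 with the 5th and 95th percentiles at -0.10 and 0.11. The other ranked members lay inside that band: Serpinb6b at 0.04 (rank 887), Nkg7 at 0.02 (rank 1137) and Ctsw at -0.05 (rank 2797). Members too sparse to be ranked were Gzmc at 0.08, Gzmk at 0.05, Prf1 at 0.03 and Serpinb9 and Gzma at 0.01. Among the genes most like Gzmb were the chemokine receptor Ccr2 (0.43), S100a6 (0.32), Ctla2a, the actin Actg1 (0.29), the glutaredoxin Glrx (0.28), the costimulatory receptor Icos (0.28), Npc2 (0.26), the glycolytic aldolase Aldoa (0.25) and vimentin Vim (0.25). The least like it, with ribosomal proteins set aside, were H2afz (-0.22), Eef1a1 (-0.21), Hspe1 (-0.20), Ppia (-0.19) and Gnb2l1 (-0.19).

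Among the members themselves the granule genes did not form 1 block. After Gzmb with Ctla2a, the highest pairs were Nkg7 with Ctsw (r = 0.19) and Serpinb9 with Serpinb6b (0.17), while Nkg7 with Ctla2a was the lowest (-0.11). Prf1 correlated most with Nkg7 (0.09), on its 15 UMIs.

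**Figure D4:**
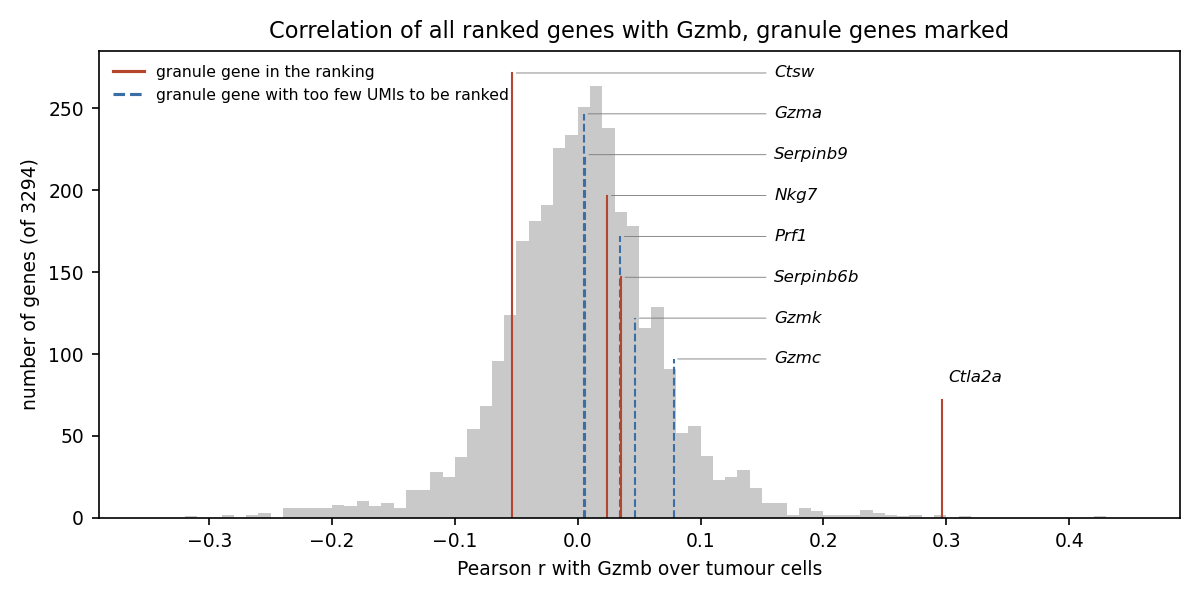
Number of genes at each Pearson r with Gzmb over 1457 tumour cells, with the 9 other granule genes marked; dashed lines are members with too few UMIs to be ranked. Ctla2a stands at 0.30, and the others between -0.05 and 0.08.

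**Figure D5:**
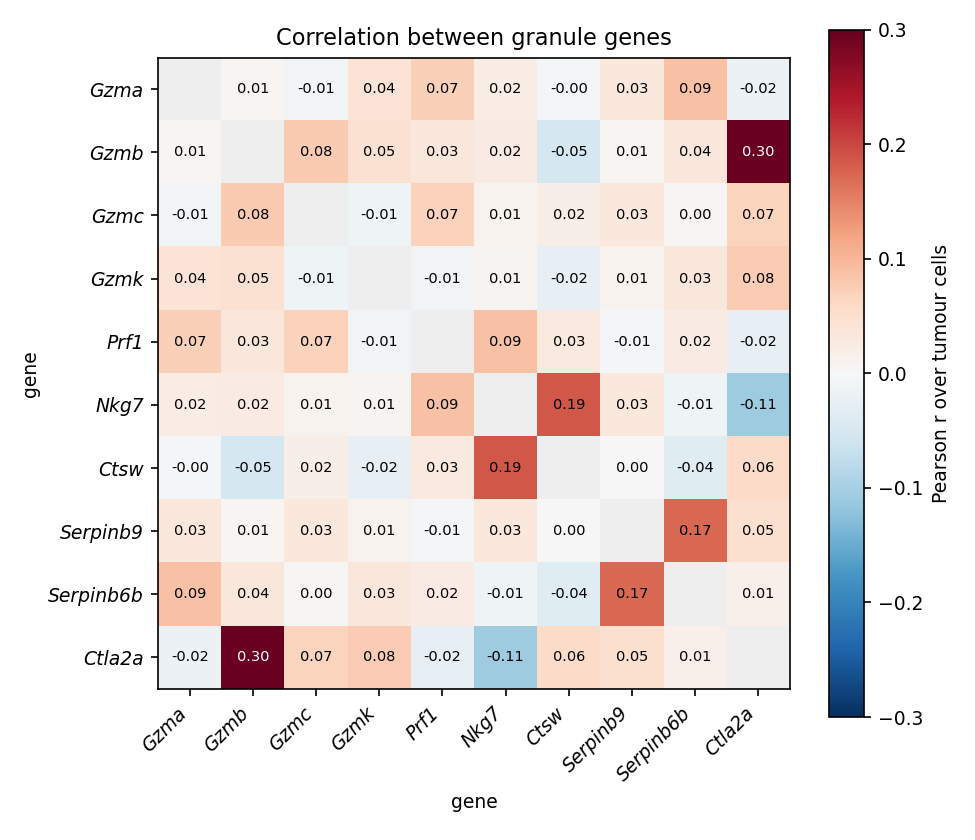
Pearson r between each pair of granule genes over 1457 tumour cells at 3834 UMIs, the diagonal left grey. Gzmb with Ctla2a (0.30), Nkg7 with Ctsw (0.19) and Serpinb9 with Serpinb6b (0.17) stand out.

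Cells with mitotic transcripts held less Gzmb at equal depth without holding it less often. Gzmb averaged 3.20 UMIs in the 801 tumour cells with such transcripts and 5.19 UMIs in the other 656, a ratio of 0.618 (0.587 to 0.650), with shares of 51.2% and 51.7%. Ctla2a stood lower in the cells with mitotic transcripts (0.709, 0.650 to 0.773), whereas mean Gzmc stood higher at 2.59-fold (1.504 to 4.68). The Gzmc ratio came from 57 UMIs in the cells with mitotic transcripts and 18 in the others. The intervals of its shares overlapped, at 3.87% (2.64% to 5.45%) and 2.29% (1.29% to 3.74%) in the same order. The cells with mitotic transcripts were deeper before thinning, with a median of 13095 UMIs against 6032.5.

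In lymph node Gzmb was found in 29 of 2202 cells, of which 16 had 1 UMI and 7 had at least 8. Those 7 cells held 88 of the 125 Gzmb UMIs (70.4%). Lymph node barcodes of 1 to 100 UMIs held Gzmb at 14.1 CPM, Ctla2a at 45.9 CPM and Nkg7 at 123 CPM, against 11.7, 33.7 and 98.1 CPM in the cells, and how much of the single UMIs came from free RNA was not tested. Ctla2a was found in 13 of the 29 Gzmb cells (44.8%, 26.4% to 64.3%) and 169 of the 2173 others (7.78%, 6.69% to 8.98%), and Nkg7 in 11 of the 29 (37.9%, 20.7% to 57.7%) and 218 of the others (10.0%, 8.80% to 11.4%). The Gzmb cells were deeper, with a median of 5925 UMIs against 4082. At 1811 UMIs the pattern was Ctla2a in 5 of 13 Gzmb cells (38.5%, 13.9% to 68.4%) against 82 of 2189 others (3.75%, 2.99% to 4.63%), and Nkg7 in 3 of 13 (23.1%, 5.04% to 53.8%) against 129 of 2189 (5.89%, 4.94% to 6.96%). Ctsw was found in 6 of the 29 Gzmb cells (20.7%) and 24.9% of the others at full depth. Mitotic transcripts, counted at full depth, were found in 13 of the 29 Gzmb cells (44.8%), and their part in these shares was not tested.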

How the data were processed

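Sorted cells of 1 tumour and 1 lymph node library were measured with 10x Chromium 3' chemistry. The deposited files hold raw UMI counts per gene and barcode, unfiltered and not normalized. Per the submitters' processing notes Cell Ranger and the mm10 build were used; no source used here names the version or annotation.

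A cell needed a UMI total of 10% of the 99th percentile among the 3000 largest barcodes (3834 UMIs in tumour, 1811 in lymph node), at least 200 genes, at most 10% mitochondrial UMIs, fewer than 20 UMIs of Pmel, Dct and Mlana, fewer than 3 of C1qa, C1qb and Lyz2, and fewer than 2 of Cd79a and Ms4a1. Left out by the last 3 filters were 18 tumour and 11 lymph node barcodes. Doublets were kept and no caller was run.

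Counts were summed per library and divided by the total of the retained cells. Ratios carry the exact conditional-binomial interval, sums the exact Poisson interval and shares the Clopper-Pearson interval; they assume independent UMIs, and spread among cells, mice and libraries is not in them. Where a group had 0 counts, 3 counts over that group served as its floor. Shares and Gzmb classes used cells thinned without replacement (seed 1); the classes are tertiles of the positive cells. Python 3.11.15, numpy 2.4.6, scipy 1.17.1, pandas 2.3.3 and, for scaling factors only, edgeR 4.0.16 and DESeq2 1.42.0 in R 4.3.3 were used. The ratio and correlation steps were tested on simulated data, and the thinning step on part of the tumour cells. The class step was not tested in this way. Gene coordinates are from GENCODE M21. Promoter coordinates follow RefSeq starts, which can lie elsewhere: the Gzmb stretch has 56262335 as its lowest base, and the GENCODE gene ends at 56262260.

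The members, the gene lists and the comparisons were chosen with earlier results of these data known. Named genes were the 10 members, the 3 highest and 3 lowest of each list with at least 20 UMIs, and the 10 highest and 5 lowest correlations with Gzmb, ribosomal, mitochondrial, haemoglobin and antigen receptor genes aside; 1 of these is not reported here. Alternatives covered scaling, thinning, cell filters, class definitions and the removal of single cells.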

Additional observations from a re-analysis of the deposited data

Results flagged for a closer look

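Barcodes with more than 100 UMIs but under the cell threshold, 3639 in tumour and 978 in lymph node, entered no comparison. In tumour they held Gzmb at 926 CPM, Nkg7 at 650 CPM, Ctla2a at 382 CPM, Ctsw at 131 CPM, Serpinb6b at 30.5 CPM, Serpinb9 at 25.4 CPM, Gzmc at 7.62 CPM and Gzma at 5.72 CPM. In lymph node they held Ctsw at 148 CPM, Nkg7 at 75.1 CPM, Ctla2a at 45.1 CPM, Serpinb6b at 16.9 CPM and Serpinb9 at 15 CPM. These members were picked out because they lay above the limit that a count of 0 allows in barcodes that were not used. Whether the signal came from small cells or from free RNA was not tested.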

How the results depend on the processing

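The number of members at least 2-fold higher in tumour was 9, and 7 to 9 under the alternatives, and for the pathway lists 23, and 21 to 28. Shares over all genes were not computed under the alternatives. The members at least 2-fold higher in Gzmb-high than in Gzmb-none cells numbered 2, and 1 to 3 under the alternatives. The 1 came without cells holding mitotic transcripts, where Gzmc was at 1.70-fold from 3 and 5 UMIs (0.264 to 8.73). The cause was not tested. The members behind the 2 also changed: with other thinnings Gzmc was at 1.72-fold and 1.77-fold, while Prf1 was at 2.87-fold and Gzma at 2.13-fold. No called ratio changed direction. The ratio of tumour over lymph node moved past its counting interval in 36 of 110 values, and that of Gzmb-high over Gzmb-none cells in 17 of 70. Correlations with Gzmb have no counting interval and were judged by a fixed difference in r. That difference was wide beside most of these correlations, and 0 of 24 moved past it. Prf1 was not counted among the 70 or the 24. Shares moved with depth in 17 of 20. The Prf1 ratio of Gzmb-high over Gzmb-none cells was 0.93 on the log2 scale, and under other thinnings -0.33, 1.52, -0.33 and 0.54; it could not be formed without mitotic cells, among Foxp3 cells or without cells with a Ccl3 or Ccl4 UMI, where both classes had at most 3 UMIs. Leaving out cells with a Ccl3 or Ccl4 UMI and leaving out the highest cells were chosen after seeing the data. No paired analysis was possible because each tissue has 1 library, and no replicate could be left out. Depth limits Prf1 and Gzmk, which had under 50 UMIs over both libraries.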
